A study of Mus musculus with 51 samples.

Results

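The Prader-Willi domain of mouse chromosome 7 was taken as all peaks and all 1 kb windows between 59.2 and 62.6 Mb (GRCm38). It held 68 of the 144952 autosomal peaks in the allelic tables of 3 histone modifications and 2 tissues, and 3400 of the 2462755 windows in the table of total signal. The domain holds 6 genes that are described one by one: Ube3a at its proximal end, Snrpn with the imprinting centre, and the distal genes Ndn, Magel2, Mkrn3 and Peg12. Of the 68 peaks, 36 were informative, meaning that at least 1 allele of a wild-type library had 20 or more reads that span a strain difference. The other 32 had fewer reads and were not tested. Just inside this limit was a peak for H3K27me3 in the epiblast (Epi) whose largest allele count was 20, and just outside it a peak for H3K4me3 with 19. H3K4me3 had 15 peaks in Epi and 21 in the extra-embryonic ectoderm (ExE). H3K27me3 had 8 and 13, and H3K36me3 7 and 4.

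The samples were dissected Epi and ExE of hybrid mouse embryos at embryonic day 6.5, and the study asked which parental biases of chromatin need DNA methylation from the oocyte. The wild-type embryos were B6/CAST, from C57BL6/Babr mothers and CAST/EiJ fathers, and CAST/B6, from the reverse cross. The matDKO/CAST embryos had CAST fathers and mothers of mixed B6 and 129 background that were floxed at Dnmt3a and Dnmt3b and carried Zp3-cre, a transgene that is active in the growing oocyte. These embryos inherited 1 deleted copy of each gene from the mother and 1 intact copy from the father, and part of their maternal chromosomes came from 129. Each of the 18 groups of cross, tissue and modification had 2 libraries, 36 in all, and 15 input libraries were sequenced beside them. A library came from a pool of 4 Epi or 8 ExE, about 2500 cells, and antibodies and input shared the chromatin of 1 pool, so the 3 modifications are not independent samples. The p-values below measure the spread between these pools. In such bulk samples a modification in fewer cells and less of it per cell cannot be told apart.

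In this domain the paternal chromosome carries the active copies of Snrpn and of the distal genes, while the maternal copies are silent. The choice is set in the female germ line, where the imprinting centre at the Snrpn promoter gains DNA methylation that the sperm copy lacks. Ube3a, an E3 ubiquitin ligase, is imprinted in neurons, where a long antisense transcript of the Snrpn unit (Snhg14) silences its paternal copy, and is used from both alleles in most other cells. Loss of the paternal genes in people causes Prader-Willi syndrome, and loss of maternal UBE3A causes Angelman syndrome. H3K4me3 marks active promoters, H3K36me3 the body of transcribed genes, and H3K27me3 is laid down by Polycomb complexes at silent or poised promoters.

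In M reads per library, the allelic tables held 1.12 to 6.06 for H3K4me3 in Epi and 2.70 to 6.82 in ExE. H3K27me3 had 0.271 to 1.99 in Epi and 2.11 to 6.58 in ExE, and H3K36me3 had 0.289 to 1.71 and 0.603 to 2.11. The paternal share of all allelic reads of a library lay between 44.2 and 51.2%. Summed H3K4me3 at the starts of 6 epiblast markers was 178 to 244 RPKM in the 4 wild-type Epi libraries and 67.6 to 102 in the 4 of ExE. For 5 measured ExE markers the sums were 59.6 to 85.7 and 92.3 to 125 RPKM, for 7 of visceral endoderm, a layer that surrounds both tissues, 38.1 to 63.6 and 60.5 to 96.8 RPKM, for 2 of mesoderm 20.02 to 50.1 and 20.3 to 27.6 RPKM, and for 1 of decidua, the maternal tissue around the embryo, 4.18 to 6.64 and 1.90 to 5.09 RPKM. No measured marker was at 0. Between the tissues 4 of 6 epiblast markers were lower in ExE, 3 of 5 ExE markers were higher and 1 was lower, 5 of 7 visceral endoderm markers were higher, and 1 of 2 mesoderm markers and the decidua marker were lower, where 6.55% of all gene starts were higher and 16.9% lower. Over the whole of Dnmt3b the inputs had 0.447 to 0.564 RPKM in the 5 matDKO/CAST libraries and 0.448 to 0.584 in the 10 wild-type libraries, and over the whole of Dnmt3a 0.542 to 0.638 and 0.471 to 0.601. Only part of each gene is floxed, so these values do not check the labels.

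The sequences before the starts are shown for genes whose promoter chromatin is described below. They are the 250 bases before the start of 4 genes, from RefSeq on GRCm38.p6, in the direction of transcription and with every CpG, the site of DNA methylation, in capitals: Snrpn with its upstream reading frame Snurf (chr7:60005200-60005449, minus strand), Ndn (chr7:62348027-62348276, plus strand), Magel2 (chr7:62376729-62376978, plus strand) and Ube3a (chr7:59228500-59228749, plus strand), a gene without parental bias here.
Snrpn/Snurf: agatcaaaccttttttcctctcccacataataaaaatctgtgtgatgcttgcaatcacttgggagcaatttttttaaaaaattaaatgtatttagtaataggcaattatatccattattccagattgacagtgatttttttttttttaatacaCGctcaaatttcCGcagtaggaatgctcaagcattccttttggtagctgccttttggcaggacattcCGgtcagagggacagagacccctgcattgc
Ndn: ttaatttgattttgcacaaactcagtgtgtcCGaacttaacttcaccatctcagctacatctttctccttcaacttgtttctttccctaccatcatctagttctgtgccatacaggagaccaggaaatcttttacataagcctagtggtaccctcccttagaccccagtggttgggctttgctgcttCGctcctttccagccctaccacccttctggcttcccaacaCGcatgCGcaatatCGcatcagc
Magel2: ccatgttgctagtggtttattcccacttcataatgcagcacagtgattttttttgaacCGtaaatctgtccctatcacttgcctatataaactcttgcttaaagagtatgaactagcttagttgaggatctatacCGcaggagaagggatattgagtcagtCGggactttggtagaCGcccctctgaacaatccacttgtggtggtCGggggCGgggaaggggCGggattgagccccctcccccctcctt
Ube3a: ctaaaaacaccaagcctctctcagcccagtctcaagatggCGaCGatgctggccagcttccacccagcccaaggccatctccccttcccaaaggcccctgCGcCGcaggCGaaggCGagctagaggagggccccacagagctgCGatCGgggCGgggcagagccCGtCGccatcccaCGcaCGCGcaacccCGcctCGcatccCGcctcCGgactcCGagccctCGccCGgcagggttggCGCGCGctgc
The Snrpn/Snurf stretch held 3 CpG and a GC content of 36.8%, Ndn 5 CpG and 47.2%, Magel2 7 CpG and 48.8%, and Ube3a 24 CpG and 70%. In the whole promoter windows of 300 bases, which run 50 bases past the start, there were 7 CpG at Snrpn/Snurf, 11 at Ndn, 10 at Magel2, 15 at Mkrn3, 12 at Peg12 and 29 at Ube3a, and the median over 32817 promoters was 7. Over its whole Epi peak Snrpn had 10.2 CpG per kb, more than 15.6% of autosomal H3K4me3 peaks, and Peg12 had 40.5, more than 96.1%.

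TGCCGC is the methylated hexamer bound by ZFP57, a zinc finger protein that keeps imprints after fertilization. Counted on both strands, it occurred 10 times in the Snrpn H3K4me3 peak of Epi, all within 1023 bases (60004179 to 60005201), with 8 copies in an intron and 2 that touch an exon, 1 of which crosses the Snrpn start. The 300 bases of this intron shown next, chosen after the positions were seen, are printed on the gene's strand with the hexamer and its reverse complement in capitals (chr7:60004307-60004606, minus strand).
Snrpn intron: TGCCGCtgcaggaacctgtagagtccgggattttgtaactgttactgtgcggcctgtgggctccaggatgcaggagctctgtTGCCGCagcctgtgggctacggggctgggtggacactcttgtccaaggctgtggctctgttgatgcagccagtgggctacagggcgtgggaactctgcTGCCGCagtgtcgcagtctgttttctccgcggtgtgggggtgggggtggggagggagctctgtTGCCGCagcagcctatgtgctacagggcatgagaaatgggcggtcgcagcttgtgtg
This stretch held 4 copies and 13 CpG. The density of the hexamer over the peak was 1.05 per kb in Epi and 1.82 per kb in ExE, where the called peak is shorter, above 98.3 and 99.6% of autosomal H3K4me3 peaks. The hexamer was in 46.6% of all Epi peaks and 43.9% of all ExE peaks. Among the distal genes the Mkrn3 peak held 3 copies in each tissue, the Magel2 peak 5 in Epi and 1 in ExE, and those of Ndn and Peg12 had 0. In the promoter windows it was present once at Snrpn/Snurf and in none of the other 5 genes, against 11.6% of all promoters. A match is a description of the letters and does not show a bound site.

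H3K4me3 at the imprinting centre was almost wholly paternal in both wild-type tissues and equal on both parental chromosomes in matDKO/CAST. The Snrpn peak of Epi (chromosome 7, 59999000 to 60008500) covers the shared start of Snrpn, which encodes a protein of the splicing machinery, and Snurf. Its B6/CAST libraries had 594 paternal and 17 maternal reads and 590 and 3 reads. The CAST/B6 libraries had 846 and 3 reads and 211 and 4 reads. The matDKO/CAST libraries had 537 and 573 reads and 145 and 116 reads. The paternal share was thus 98.6% ± 1.16 (SD, n = 4) over the wild-type libraries and 52.0% ± 5.08 (SD, n = 2) in matDKO/CAST, with no overlap.

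The ExE peak (60001500 to 60007000) gave the same picture. B6/CAST had 360 and 5 reads and 315 and 8 reads, CAST/B6 383 and 4 reads and 338 and 4 reads, and matDKO/CAST 174 and 199 reads and 181 and 154 reads. The paternal share was 98.5% ± 0.658 (SD, n = 4) in the wild type and 50.3% ± 5.22 (SD, n = 2) in matDKO/CAST. All 8 wild-type libraries of both tissues were above 97%, and the 4 matDKO/CAST libraries lay between 46.6 and 55.6%.

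Maternal and paternal reads were compared per cross with the quasi-likelihood test of edgeR over all informative autosomal peaks, and imprinted here means that 1 parent had more reads in each of the reciprocal crosses, both at an adjusted p-value below 0.05. The maternal and paternal counts of a library entered as separate values. Their pairing was used only in the alternative fits with each library as a block. Snrpn was imprinted in Epi, with a log2 ratio of paternal to maternal reads of 5.95 ± 0.35 (SE) in B6/CAST (adjusted p = 8.18e-06) and 7.11 in CAST/B6 (adjusted p = 1.51e-12). In ExE the log2 ratios were 5.73 ± 0.24 (adjusted p = 4.58e-16) and 6.41 (adjusted p = 5.76e-18). In matDKO/CAST they were 0.16 ± 0.14 in Epi and 0.14 ± 0.20 in ExE, with edgeR adjusted p-values of 0.685 and 0.903. The loss was tested directly against B6/CAST, which also has CAST fathers, as the interaction of cross and parent. The mothers of matDKO/CAST carried some 129 alleles and its reads were assigned with another set of strain differences, and the part of this in the changes from B6/CAST, here and at the peaks below, was not tested. The change of the log2 ratio was -5.76 ± 0.37 in Epi (edgeR adjusted p = 4.55e-10) and -5.59 ± 0.39 in ExE (adjusted p = 7.43e-08).

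**Figure D1:**
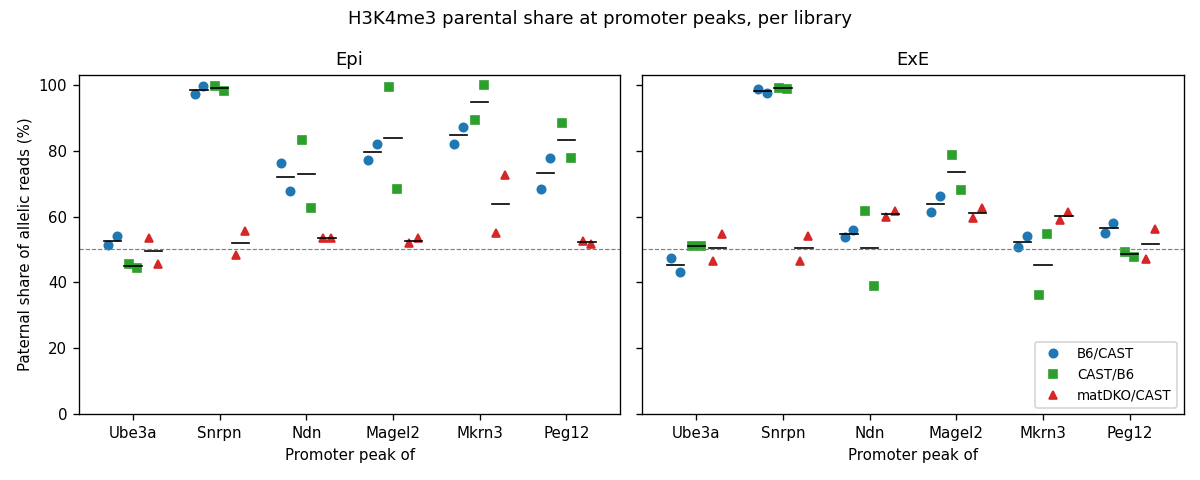
Paternal share of allelic H3K4me3 reads, in percent, at the promoter peak of each of the 6 genes in Epi (left) and ExE (right); each point is 1 library, horizontal bars are the mean of the 2 libraries of a cross, and the dashed line marks 50%. Snrpn lies above 97% in all 8 wild-type libraries and near 50% in matDKO/CAST, the distal genes lie above 60% in the wild-type Epi libraries, and Ube3a lies near 50% in all libraries.

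Upstream of the centre, within the long Snrpn and Snhg14 transcription units and beyond them, 4 weaker H3K4me3 peaks were informative in both tissues. The nearest to the centre (60242500 to 60246000, in an intron of both Snhg14 and Snrpn) was also paternal in Epi, with log2 ratios of 1.72 ± 0.31 in B6/CAST (adjusted p = 0.0179) and 2.13 in CAST/B6 (adjusted p = 0.000463), and 78.0% ± 4.05 (SD, n = 4) of its reads were paternal. The matDKO/CAST share was 48.3% ± 0.772 (SD, n = 2), and the fall of its log2 ratio by 1.70 ± 0.42 did not pass (edgeR adjusted p = 0.0604). In ExE the same peak had a lower share of 61.3% ± 4.73 (SD, n = 4) and a log2 ratio over both wild-type crosses of 0.64 ± 0.16 (adjusted p = 0.022), which did not pass with DESeq2 (adjusted p = 0.450).

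The next pair of peaks followed the strain and the parent together. At 60389500 to 60393000, in an intron of the same units, B6/CAST had 18 paternal and 20 maternal reads and 20 and 16 reads in Epi, whereas CAST/B6 had 79 and 3 reads and 14 and 1 reads. matDKO/CAST, whose paternal allele is CAST as in B6/CAST, had 12 and 33 reads and 6 and 15 reads. The intergenic peak at 60489000 to 60494000 had 12 and 27 reads and 20 and 26 reads in B6/CAST, 83 and 1 reads and 17 and 3 reads in CAST/B6, and 6 and 44 reads and 7 and 20 reads in matDKO/CAST. Both peaks were thus clearly paternal in the cross with the B6 father, near balance or maternal in B6/CAST, and maternal in both matDKO/CAST libraries.

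The effect of the parent over both wild-type crosses, with a term for strain, was a log2 ratio of 2.23 ± 0.40 for the first of the pair (edgeR adjusted p = 0.00521) and 1.86 ± 0.44 for the other (adjusted p = 0.139). In matDKO/CAST the maternal excess was -1.33 ± 0.45 (adjusted p = 0.0484) and -2.18 ± 0.45 (adjusted p = 8.61e-05). These were the only 2 informative peaks of the domain with a bias in matDKO/CAST, where 7.17% of all informative H3K4me3 peaks of Epi had one. Without CAST/B6 replicate 2, and without either matDKO/CAST library, neither bias passed (edgeR adjusted p = 0.0512 to 0.972 in a fit that pools the spread of all crosses). That at 60389500 already missed in this fit with all libraries (-1.35, edgeR adjusted p = 0.183), so its losses there do not show dependence on single libraries. In this fit it was -1.35 without B6/CAST replicate 1 or 2 and -1.33 without CAST/B6 replicate 3. With DESeq2 neither bias passed (adjusted p = 1.00 and 0.329), and that at 60389500 missed with library totals (edgeR adjusted p = 0.0618). In ExE the matching peaks had more reads on the B6 allele in both wild-type crosses. At 60491000 the log2 ratio was -1.82 ± 0.38 in B6/CAST (adjusted p = 0.00134) and 2.49 in CAST/B6 (adjusted p = 1.32e-05). With each library as a block, so that the alleles of a library are compared with each other, both ExE peaks also passed in matDKO/CAST, at log2 ratios of -1.44 (adjusted p = 0.021) and -1.48 (adjusted p = 0.0214), where 12.3% of all informative peaks did.

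The farthest of these peaks (60621500 to 60624000, intergenic) was 76.97% ± 11.8 paternal (SD, n = 4) in wild-type Epi, with a parent effect of 2.04 ± 0.34 (adjusted p = 0.002), and 50.4% ± 3.82 (SD, n = 2) in matDKO/CAST. In ExE its share was 61.0% ± 16.1 (SD, n = 4) and the parent effect of 0.69 ± 0.22 did not pass (adjusted p = 0.296). The annotated starts of the upstream Snrpn and Snhg14 exons and of Ipw, a non-coding gene of the unit, had almost no H3K4me3, with wild-type means of 0.0232 to 0.136 RPKM in the 2 tissues.

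**Figure D2:**
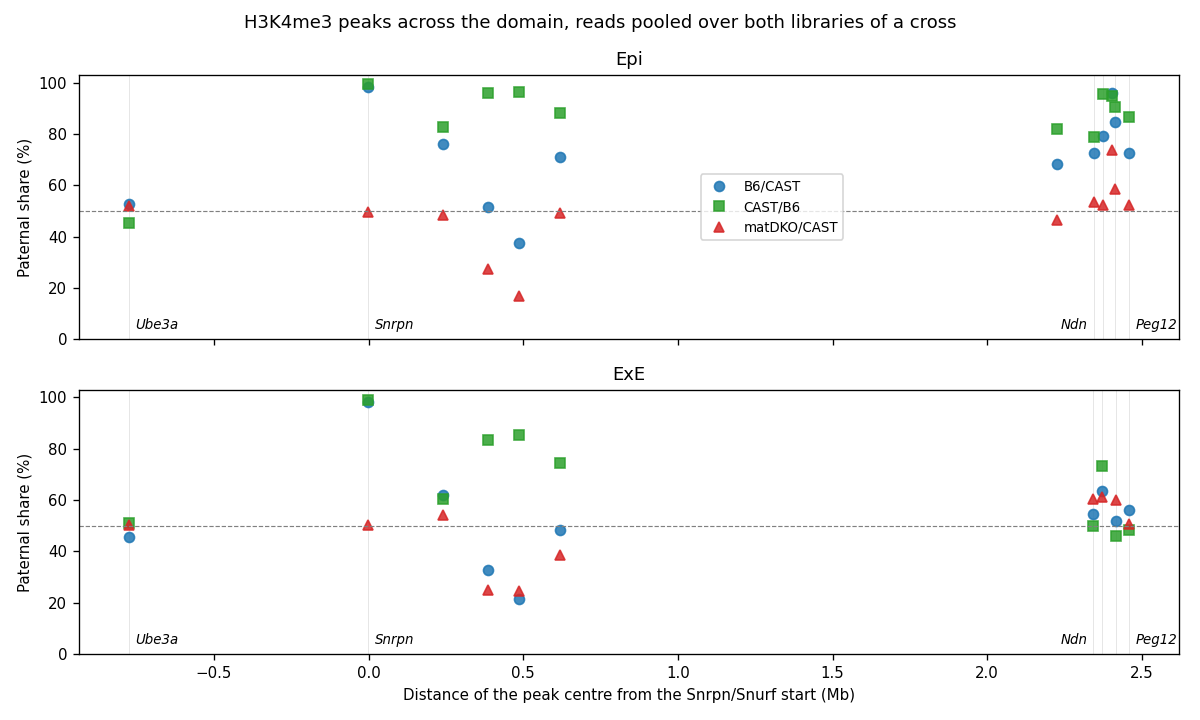
Paternal share of H3K4me3 reads, in percent, for every informative peak along the domain in Epi (top) and ExE (bottom), against the distance of the peak centre from the Snrpn/Snurf start in Mb; each symbol pools the reads of the 2 libraries of a cross. In Epi the wild-type symbols lie above 50% at the centre and at the distal genes, more than 2.3 Mb away, while in ExE those near 2.4 Mb lie close to 50% except at Magel2; the peaks near 0.4 and 0.5 Mb differ between the reciprocal crosses.

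The distal genes, 2.34 to 2.46 Mb from the Snrpn start, were paternally biased for H3K4me3 in wild-type Epi, each less than the centre. Magel2, which encodes a MAGE protein that works with ubiquitin ligases in protein recycling, had the most allelic reads of the 4 and the longest peak (62375500 to 62383000). Its B6/CAST libraries had 128 paternal and 38 maternal reads and 114 and 25 reads, CAST/B6 had 130 and 1 reads and 13 and 6 reads, and matDKO/CAST had 85 and 79 reads and 24 and 21 reads. The share was 81.7% ± 12.97 (SD, n = 4) in the wild type and 52.6% ± 1.06 (SD, n = 2) in matDKO/CAST, with no overlap, and CAST/B6 replicate 3 was the lowest wild-type library at 68.4%.

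Ndn, whose product necdin restrains growth in neurons, had 58 and 18 reads and 38 and 18 reads in B6/CAST, 50 and 10 reads and 10 and 6 reads in CAST/B6, and 52 and 45 reads and 8 and 7 reads in matDKO/CAST. Mkrn3, which encodes a ring finger protein that holds back the onset of puberty, had 46 and 10 reads and 47 and 7 reads, then 25 and 3 reads and 3 and 0 reads, and in matDKO/CAST 45 and 37 reads and 16 and 6 reads. Peg12, a retained intronless gene of the Frat family that acts in Wnt signalling, had 52 and 24 reads and 49 and 14 reads, then 38 and 5 reads and 7 and 2 reads, and in matDKO/CAST 39 and 35 reads and 15 and 14 reads. In each of these 3 genes every wild-type library had more paternal than maternal reads. The lowest wild-type share was 62.5% at Ndn, 82.1% at Mkrn3 and 68.4% at Peg12, and the highest matDKO/CAST share was 53.6, 72.7 and 52.7%. How many of all informative peaks separate in this way was not counted. The change from B6/CAST passed at none of these 3 genes in the reported edgeR fit.

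By the test per cross, 3 of the 12 informative H3K4me3 peaks of Epi were imprinted, all paternal: Snrpn, the intronic peak at 60242500 and Magel2. Over all informative autosomal peaks 0.0787% were imprinted with the paternal allele higher. Magel2 had log2 ratios of 2.01 ± 0.25 in B6/CAST (edgeR adjusted p = 0.00203) and 4.02 in CAST/B6 (adjusted p = 0.000619). Ndn, Mkrn3 and Peg12 each missed the threshold in at least 1 cross. With each library as a block, 7 peaks were imprinted, Ndn, Mkrn3, Peg12 and the peak at 60621500 among them, where 0.143% of all informative peaks were.

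The effect of the parent over both crosses passed at 9 of the 12 peaks, all paternal, against 0.162% of all informative peaks. The median log2 ratio of all 12 was 2.02, and that of all informative peaks -0.00. Ndn had 1.57 ± 0.32 (edgeR adjusted p = 0.0272), Magel2 3.01 ± 0.36 (adjusted p = 1.32e-05), Mkrn3 2.77 ± 0.48 (adjusted p = 0.00388) and Peg12 2.00 ± 0.35 (adjusted p = 0.00507). A small peak between Magel2 and Mkrn3 (62406000 to 62408000), in an intron of the non-coding gene Gm32061, had 4.02 ± 0.85 (adjusted p = 0.0404). In matDKO/CAST this small peak had 27 paternal and 9 maternal reads and 7 and 3 reads, a share of 72.5% ± 3.54 (SD, n = 2) and a log2 ratio of 1.57 ± 0.55 (edgeR adjusted p = 0.0567), and its change from B6/CAST was -2.80 ± 1.13 (adjusted p = 1.00). The 9 calls depended on CAST/B6 replicate 2, the deeper library of that cross: without it 2 passed, Snrpn and the peak at 60242500, and the values were 1.07 for Ndn, 1.54 for Magel2, 4.27 for Mkrn3 and 1.62 for Peg12 (edgeR adjusted p = 0.0995 to 1.00). Ndn also did not pass without B6/CAST replicate 1 (1.43, adjusted p = 0.0944). Imprinted peaks went from 7, in the fit that pools the spread of all crosses, to 1 without this library. DESeq2 did not pass the parent effect at Magel2 (2.60, adjusted p = 0.708), Ndn (adjusted p = 0.139) or 62406000 (adjusted p = 0.075), and with library totals in place of TMM Ndn and 62406000 did not pass (edgeR adjusted p = 0.0666 and 0.0719).

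In matDKO/CAST none of the 4 distal genes had a bias, with log2 ratios of 0.30 ± 0.32 at Ndn, 0.23 ± 0.24 at Magel2, 0.66 ± 0.33 at Mkrn3 and 0.24 ± 0.33 at Peg12 (edgeR adjusted p = 0.294 to 0.826). The change against B6/CAST passed at Snrpn and Magel2, 2 of 12 peaks, where 0.615% of all informative peaks changed towards the maternal allele. The ratio of Magel2 fell by 1.75 ± 0.35 on the log2 scale (adjusted p = 0.00844). The values for the other 3 were -1.14 ± 0.54 at Ndn (adjusted p = 1.00), -1.75 ± 0.58 at Mkrn3 (adjusted p = 0.485) and -1.22 ± 0.52 at Peg12 (adjusted p = 1.00). With each library as a block, 4 changes passed, those of Mkrn3 (adjusted p = 0.0279) and of the peak at 60242500 (adjusted p = 0.000278) in addition, where 1.54% of all informative peaks did in either direction. The call at Magel2 did not pass with DESeq2 (-1.76, adjusted p = 0.100) or with all 3 crosses in 1 edgeR fit (-1.77, adjusted p = 0.108). In that fit its value stayed between -1.97 and -1.60 without any 1 of the B6/CAST or matDKO/CAST libraries. As the fit lost the call with all libraries, these runs do not show on which library it depends.

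In Epi the peak over the start of Gm9801 (62208500 to 62210000), with too few reads for the test, had 18, 10, 11 and 3 paternal reads and 0 maternal reads in all 4 wild-type libraries, and 12 and 13 reads and 7 and 1 reads in matDKO/CAST. In ExE the peak at this start had 22 paternal and 16 maternal reads over the 4 wild-type libraries.

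In ExE Magel2 was paternally biased, and Ndn, Mkrn3 and Peg12 had no parent effect that passed. Magel2 (62375500 to 62378500) had 57 paternal and 36 maternal reads and 53 and 27 reads in B6/CAST, and 37 and 10 reads and 34 and 16 reads in CAST/B6. matDKO/CAST had 22 and 15 reads and 25 and 15 reads. The wild-type share was 68.6% ± 7.34 (SD, n = 4) and that of matDKO/CAST 61.0% ± 2.15 (SD, n = 2), inside the wild-type range of 61.3 to 78.7% for the higher of its libraries.

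Snrpn and Magel2 were the 2 imprinted peaks among the 10 informative H3K4me3 peaks of ExE, where 0.19% of all informative peaks were imprinted with the paternal allele higher. DESeq2, 1 edgeR fit of all crosses and a threshold of 0.01 each left 1 of the 2, and at 0.01 Magel2 was the one lost. Magel2 had log2 ratios of 0.86 ± 0.25 (edgeR adjusted p = 0.0181) and 1.39 (adjusted p = 0.0106), a joint effect of 1.11 ± 0.21 (adjusted p = 0.000644), and 0.76 ± 0.46 in matDKO/CAST (adjusted p = 0.61). The change in matDKO/CAST was -0.10 ± 0.50 (adjusted p = 1.00) and whether it differs from the change in Epi was not tested. The parent effect passed at 3 peaks, Snrpn, Magel2 and that at 60242500, where 0.431% of all informative peaks did, and leaving out any 1 wild-type library left Snrpn (edgeR adjusted p = 0.0997 to 0.759 for Magel2). In matDKO/CAST 0 of the 10 peaks had a bias, where 2.76% of all informative peaks did in either direction. The change towards the maternal allele passed at 1 peak, Snrpn, where 0.81% of all informative peaks changed in this direction.

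The remaining distal genes had close to equal reads in wild-type ExE. Ndn had 35 and 30 reads and 24 and 19 reads in B6/CAST and 21 and 13 reads and 14 and 22 reads in CAST/B6, with a parent effect of 0.12 ± 0.24. Mkrn3 had 40 and 39 reads and 27 and 23 reads, then 13 and 23 reads and 23 and 19 reads, with an effect of -0.07 ± 0.23. Peg12 had 62 and 51 reads and 43 and 31 reads, then 31 and 32 reads and 33 and 36 reads, with an effect of 0.12 ± 0.18. The edgeR adjusted p-values of the 3 were 0.997 to 1.00, and wild-type libraries with a paternal and with a maternal excess occurred in each gene. In matDKO/CAST the paternal share was 60.8% ± 1.09 (SD, n = 2) at Ndn, 60.02% ± 1.70 at Mkrn3 and 51.8% ± 6.49 at Peg12. Both matDKO/CAST libraries of Mkrn3, at 58.8 and 61.2%, lay above the wild-type range of 36.1 to 54.8%, while those of Ndn lay within it. The log2 ratios in matDKO/CAST were 0.73 ± 0.44, 0.70 ± 0.39 and 0.18 ± 0.30 (edgeR adjusted p = 0.553 to 0.927), and the changes from B6/CAST were 0.41 ± 0.50, 0.53 ± 0.46 and -0.24 ± 0.36 (adjusted p = 1.00).

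Ube3a had no parental bias for H3K4me3 in either tissue or any cross. Its Epi promoter peak (59227000 to 59233000) had 92 and 87 reads and 88 and 75 reads in B6/CAST, 111 and 133 reads and 27 and 34 reads in CAST/B6, and 87 and 76 reads and 16 and 19 reads in matDKO/CAST. The parent effect was -0.06 ± 0.17 in Epi and -0.11 ± 0.12 in ExE (edgeR adjusted p = 1.00 and 0.997).

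The imprinting centre and the distal genes were then compared within each library. For this, the reads of the 4 distal promoter peaks were summed, 0.5 was added to each count, and the log2 ratio was centred on the median of the library's informative peaks. In wild-type Epi the ratio was 6.51 ± 1.36 (SD, n = 4) at Snrpn and 2.13 ± 1.04 over the distal genes, a difference of 4.38 ± 0.828. In ExE it was 5.98 ± 0.496 and 0.361 ± 0.190, a difference of 5.62 ± 0.659. Snrpn was higher in 4 of 4 libraries of each tissue, and an exact two-sided sign-flip test gave p = 0.13, the smallest that 4 libraries allow. In matDKO/CAST the difference was -0.167 in Epi and -0.404 in ExE (means of 2 libraries). Against the 4 wild-type libraries an exact permutation test, added after the data were seen, gave p = 0.0667 in each tissue, again the smallest possible value.

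**Figure D3:**
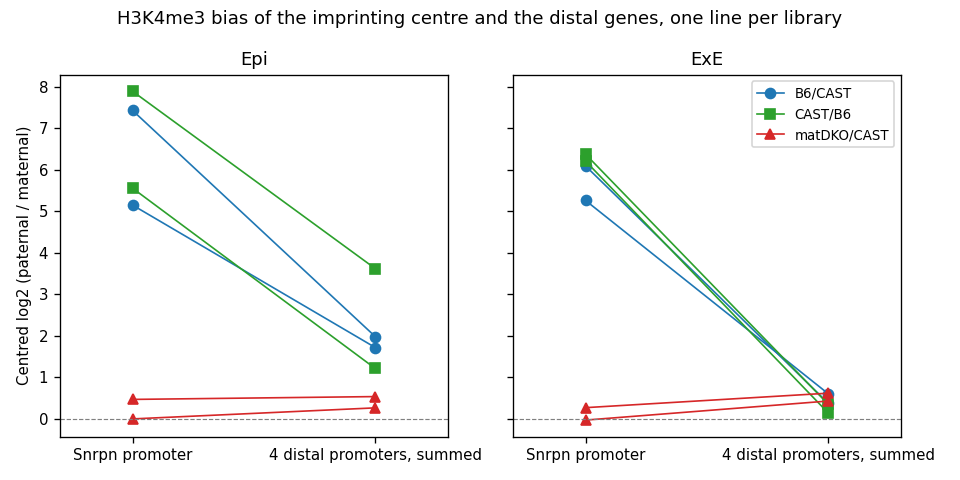
Centred log2 ratio of paternal to maternal H3K4me3 reads at the Snrpn promoter and over the 4 distal promoters with their reads summed, in Epi (left) and ExE (right); each line joins the 2 values of 1 library. The 4 wild-type lines of each tissue fall from Snrpn to the distal genes, and the matDKO/CAST lines stay between -0.04 and 0.62 at both ends.

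The bias of each gene was compared between the tissues over the 4 wild-type libraries of each, as the same centred log2 ratio and with exact two-sided permutation tests, 10 in all, whose smallest possible p is 0.0286. For H3K4me3 Ndn had 1.44 ± 0.684 (SD, n = 4) in Epi and 0.154 ± 0.564 in ExE, and the exact p was 0.0286. Mkrn3 had 2.64 ± 0.293 and -0.0592 ± 0.527, and Peg12 1.83 ± 0.687 and 0.152 ± 0.321, with the same exact p. Magel2 had 2.87 ± 2.41 and 1.14 ± 0.463 (exact p = 0.0571). Peaks were called per tissue, and that of Magel2 was 7.5 kb long in Epi and 3 kb in ExE. The part of this in its difference was not tested. After Benjamini-Hochberg adjustment over the 10 tests no value passed, the smallest being 0.0714.

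Snrpn had 6.51 ± 1.36 in Epi and 5.98 ± 0.496 in ExE (SD, n = 4; exact permutation p = 0.486), and Ube3a -0.0530 ± 0.297 and -0.0958 ± 0.176 (exact p = 0.800). Visceral endoderm markers, 5 of 7 of which were higher in ExE, moved with the tissues, and their part in these differences was not tested.

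H3K36me3 carried the same parental pattern over the transcribed Snrpn unit. The peak downstream of the Snrpn start (59966500 to 60004000 in Epi), which covers the Snurf and Snrpn unit, had 70 paternal and 14 maternal reads and 209 and 43 reads in B6/CAST, 174 and 7 reads and 172 and 15 reads in CAST/B6, and 25 and 25 reads and 53 and 60 reads in matDKO/CAST. The ExE peak (59967000 to 60003000) had 116 and 13 reads and 100 and 11 reads, then 97 and 17 reads and 76 and 11 reads, and in matDKO/CAST 31 and 32 reads and 49 and 43 reads. The share was 88.6% ± 6.53 (SD, n = 4) in wild-type Epi and 88.1% ± 2.37 in ExE, and 48.5% ± 2.19 (SD, n = 2) and 51.2% ± 2.87 in matDKO/CAST, with no overlap.

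Snrpn was the 1 imprinted H3K36me3 peak of the domain in each tissue, among 4 informative peaks in Epi and 3 in ExE, where 0.0361 and 0.213% of all informative peaks were imprinted with the paternal allele higher. Its parent effect was 3.12 ± 0.15 in Epi and 2.89 ± 0.18 in ExE (edgeR adjusted p = 5.02e-51 and 1.07e-46). In matDKO/CAST the change of the ratio was -2.33 ± 0.33 in Epi (adjusted p = 3.51e-07) and -3.00 ± 0.37 in ExE (adjusted p = 1.02e-06), where 0.144 and 0.326% of all informative peaks changed towards the maternal allele. Without matDKO/CAST replicate 3 the change in Epi was -2.12 and did not pass (adjusted p = 0.062). An intergenic H3K36me3 peak of Epi (61493000 to 61506500) also had a parent effect, of 1.55 ± 0.26 (adjusted p = 5.47e-06, and 0.0518 with DESeq2), which made 2 of 4 peaks in Epi and 1 of 3 in ExE against 0.0993 and 0.401% of all.

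No parental bias of H3K36me3 passed at Ube3a. The longer peak over its body had a paternal share of 50.3% ± 4.62 (SD, n = 4) in wild-type Epi and 52.2% ± 1.69 in ExE, and 51.9% ± 5.63 (SD, n = 2) and 58.4% ± 4.03 in matDKO/CAST. The matDKO/CAST log2 ratio in ExE was 0.65 ± 0.28 (edgeR adjusted p = 0.532). A further peak in Ube3a, from 59300500 in Epi and 59300000 in ExE, had 51.7% ± 10.7 (SD, n = 4) and 50.5% ± 5.56 in the wild type and 42.5% ± 19.8 (SD, n = 2) and 35.6% ± 14.96 in matDKO/CAST, with a change from B6/CAST of 0.28 ± 0.67 and -0.99 ± 0.53 (edgeR adjusted p = 1.00 for both). The Snhg14 unit overlaps Ube3a in antisense, and reads of a histone modification cannot be assigned to 1 of the overlapping units. No distal gene had an H3K36me3 peak.

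**Figure D4:**
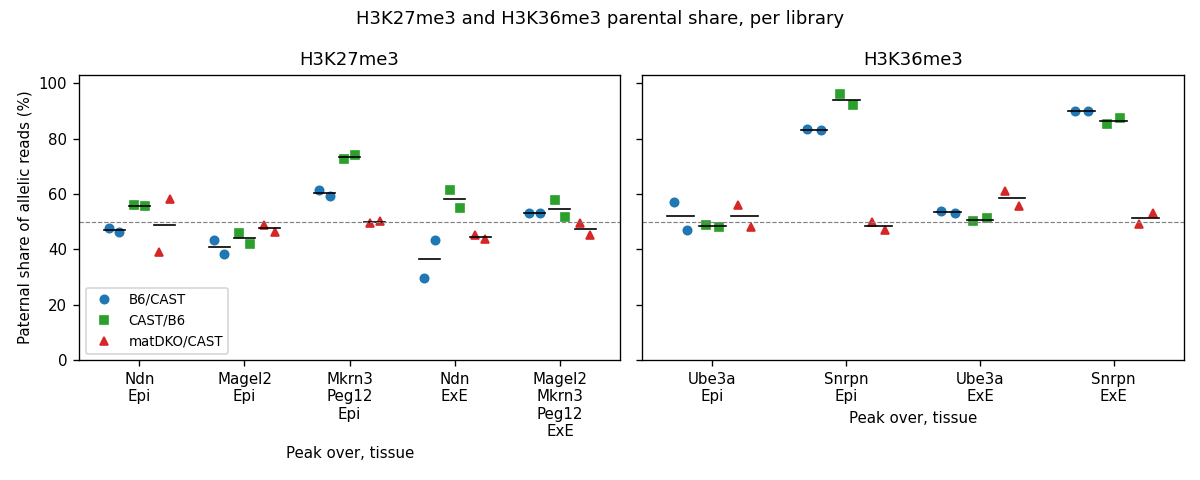
Paternal share of allelic reads, in percent, at H3K27me3 peaks over the distal genes (left) and at H3K36me3 peaks over Ube3a and Snrpn (right), by tissue; points are libraries, bars the mean of the 2 libraries of a cross, and the dashed line 50%. The Snrpn points lie between 82.9 and 96.1% in the wild type and between 46.9 and 53.3% in matDKO/CAST, and the Mkrn3 and Peg12 peak of Epi lies above 59% in the wild type and near 50% in matDKO/CAST.

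H3K27me3 lay over the distal genes and not over the imprinting centre. No H3K27me3 peak overlapped the Snrpn start in either tissue. In Epi a peak of 100.5 kb covered Mkrn3 and Peg12 (62401000 to 62501500), and in ExE 1 of 127.5 kb covered Magel2 as well (62364500 to 62492000). The Epi peak had 470 paternal and 297 maternal reads and 535 and 370 reads in B6/CAST, 966 and 367 reads and 697 and 242 reads in CAST/B6, and 534 and 548 reads and 142 and 141 reads in matDKO/CAST. The share was 66.8% ± 7.68 (SD, n = 4), with a range of 59.1 to 74.2%, in the wild type and 49.8% ± 0.582 (SD, n = 2) in matDKO/CAST. Over all peaks the matDKO/CAST libraries had 46.0 and 44.2% paternal reads, against 47.4 to 50.4% in the wild type. The change from B6/CAST did not pass, as given below.

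In Epi the paternal chromosome thus carried more of the Polycomb mark over this long peak and more H3K4me3 at the promoter peaks of its 2 genes. Where in the long peak the paternal excess lies cannot be told from its summed reads. The parent effect of the H3K27me3 peak was 1.07 ± 0.15 (edgeR adjusted p = 5.53e-05), 1 of 4 informative peaks against 0.628% of all with the paternal allele higher. It passed per cross only in CAST/B6, at 1.46, and not in B6/CAST, at 0.68 ± 0.25 (adjusted p = 0.296), so that 0 of the 4 peaks were imprinted, where 0.28% of all were. With each library as a block both crosses passed (adjusted p = 1.77e-08 in B6/CAST), against 0.482% of all informative peaks. The change in matDKO/CAST was -0.40 ± 0.32 (adjusted p = 1.00), and 0 of the 4 peaks passed, against 0.146% of all towards the maternal allele.

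In ExE the long peak had 408 and 362 reads and 399 and 351 reads in B6/CAST, 621 and 452 reads and 328 and 308 reads in CAST/B6, and 201 and 204 reads and 147 and 178 reads in matDKO/CAST. Its parent effect was 0.27 ± 0.07 (edgeR adjusted p = 0.00218), 1 of 3 informative peaks against 4.75% of all. It did not pass without B6/CAST replicate 1 or 2 or without CAST/B6 replicate 1 (adjusted p = 0.121 to 0.565). As 0.0786 was the adjusted p in B6/CAST, no peak of the 3 was imprinted, against 1.12% of all, and with the library as a block this 1 was, against 1.51%. The change in matDKO/CAST passed at 0 of the 3 peaks, against 0.705% of all towards the maternal allele. From Magel2 to Peg12 the centred log2 ratio was 0.988 ± 0.429 (SD, n = 4) in Epi and 0.258 ± 0.159 in ExE (exact permutation p = 0.0286, adjusted 0.0714), and at Ndn it was 0.126 ± 0.247 and -0.138 ± 0.769 (exact permutation p = 0.571, adjusted 0.714). DESeq2 did not pass the parent effect of the long ExE peak (adjusted p = 0.214). Ndn had H3K27me3 peaks of its own, with a share of 51.4% ± 5.10 (SD, n = 4) in wild-type Epi and 47.3% ± 13.8 in ExE, and the Magel2 peak of Epi had 42.4% ± 3.25.

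Total H3K4me3 over both alleles was highest at Ube3a and Snrpn and lower at the distal genes. As the mean RPKM within 1 kb of the start, wild-type Epi had 36.5 ± 9.51 (SD, n = 4) at Ube3a, 18.5 ± 5.07 at Snrpn/Snurf, 7.62 ± 0.862 at Mkrn3, 6.98 ± 1.71 at Magel2, 5.29 ± 1.18 at Ndn and 5.04 ± 1.48 at Peg12. In ExE the levels were 30.3 ± 5.28, 12.1 ± 1.96, 9.34 ± 1.42, 3.79 ± 0.693, 3.51 ± 0.774 and 7.54 ± 1.06 in the same order of genes. In Epi the ranges of the distal genes overlapped except those of Ndn and Mkrn3, while in ExE Mkrn3 and Peg12 lay above Magel2 and Ndn without overlap. All these windows have the same length, and the medians of the inputs at the 6 starts were 0.371 to 0.449 RPKM in Epi and 0.316 to 0.415 RPKM in ExE.

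Between the tissues, limma on log2(RPKM + 0.5) over 17704 gene starts gave lower H3K4me3 in ExE at Snrpn/Snurf (log2 difference -0.57 ± 0.19, adjusted p = 0.0121), Ndn (-0.53 ± 0.19, adjusted p = 0.0219) and Magel2 (-0.78 ± 0.19, adjusted p = 0.000207). Peg12 was higher in ExE by 0.56 ± 0.19 (adjusted p = 0.0124). Mkrn3 and Ube3a did not pass, at 0.27 ± 0.19 and -0.25 ± 0.19. These were 4 of the 6 tested starts of the domain, where 23.4% of all starts passed in either direction, 1159 higher and 2984 lower in ExE, and edgeR on reads recovered from the RPKM steps gave 42.6% and a split of 3988 and 3556. Leaving out 1 library at a time left 2 to 4 of the calls, with that at Magel2 always among them. Snrpn/Snurf did not pass without B6/CAST Epi replicate 1, B6/CAST ExE replicate 2, CAST/B6 Epi replicate 2 or CAST/B6 ExE replicate 1 (adjusted p = 0.0518 to 0.0855), and Ndn and Peg12 each failed without several single libraries (adjusted p = 0.0519 to 0.170). Ndn also did not pass with quantile scaling (-0.14, limma adjusted p = 0.394) or with no filter on low values (adjusted p = 0.0601). Mkrn3 passed with quantile scaling (0.53, adjusted p = 0.000355) and with edgeR (0.43, adjusted p = 0.0019), and Ube3a passed with quantile scaling (-0.15, adjusted p = 0.0431).

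**Figure D5:**
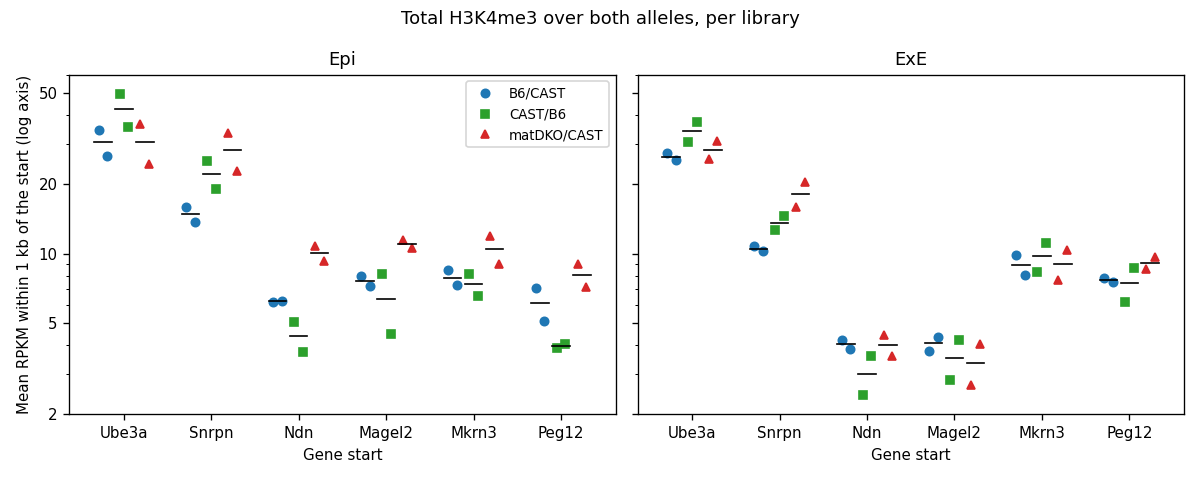
Mean H3K4me3 RPKM within 1 kb of each gene's start on a log axis, over both alleles, in Epi (left) and ExE (right); points are libraries and bars the mean of the 2 libraries of a cross. By limma the difference between matDKO/CAST and the wild type passed only at Ndn in Epi, where 1.54% of all starts passed. In ExE it passed at none of the starts shown, where 0.548% of all did.

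In matDKO/CAST total H3K4me3 was higher at Ndn in Epi. The wild-type libraries had 6.17, 6.23, 5.04 and 3.73 RPKM at the Ndn start and matDKO/CAST 10.8 and 9.32 RPKM, a log2 difference of 0.88 ± 0.23 (limma adjusted p = 0.0119). Snrpn/Snurf had 16.0, 13.7, 25.4 and 19.0 RPKM and 33.5 and 23.0 RPKM in matDKO/CAST, a difference of 0.61 ± 0.23 (adjusted p = 0.224), and 1 matDKO/CAST library lay within the wild-type range. The differences were 0.66 ± 0.23 at Magel2, 0.42 ± 0.23 at Mkrn3, 0.66 ± 0.23 at Peg12 and -0.24 ± 0.23 at Ube3a, none past the threshold (adjusted p = 0.136 to 0.969). Ndn was thus 1 of 6 starts, where 1.54% of all passed.

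The edgeR test on recovered reads, added after the data were seen, gave 5 of 6 in Epi: Snrpn/Snurf at 0.71 (adjusted p = 0.000271), Magel2 at 0.72 (adjusted p = 0.0431), Mkrn3 at 0.53 (adjusted p = 0.0377), Peg12 at 0.81 (adjusted p = 0.0117) and Ndn, where 2.03% of all starts passed. The limma call at Ndn did not pass without B6/CAST replicate 2, matDKO/CAST replicate 1 or matDKO/CAST replicate 2 of Epi (adjusted p = 0.0504 to 0.277), with no filter on low values, with the replicate number as a block or against B6/CAST alone (adjusted p = 0.107, 0.0802 and 1.00). In ExE limma passed 0 of 6 starts, where 0.548% of all passed, with Snrpn/Snurf at 0.58 ± 0.23 (adjusted p = 0.541). edgeR on recovered reads passed Snrpn/Snurf there (0.59, adjusted p = 0.00141), where 2.49% of all starts passed. The summed level of the 2 measured mesoderm markers in ExE was 12.3 to 16.6 RPKM in matDKO/CAST against 20.3 to 27.6 RPKM in the wild type, and 1 of the 2 was lower by limma, while no measured marker of the other lists passed. The part of this in the matDKO/CAST values of ExE was not tested. Of the 6 starts, Snrpn/Snurf had an unadjusted limma p below 0.05 in ExE, where 5.01% of all starts had one.

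Total H3K27me3 was above the input over the distal cluster and not at the imprinting centre. From Ndn to Peg12 the median over libraries was 1.84 RPKM in Epi and 1.09 in ExE, against 0.426 and 0.425 in the inputs. At the imprinting centre it was 0.214 RPKM in Epi and 0.244 in ExE, below the input medians of 0.414 and 0.361, while H3K4me3 there was 19.3 and 9.24 RPKM. The median window of the whole series had 0.222 to 0.330 RPKM in the H3K27me3 libraries and 0.419 to 0.484 in the inputs. A value below the input therefore does not show depletion at the centre. At the Peg12 start H3K27me3 was 4.31 ± 0.592 RPKM (SD, n = 4) in wild-type Epi and 2.20 ± 0.0816 in ExE, a log2 difference of -0.83 ± 0.19 (limma adjusted p = 8.14e-05), and Mkrn3 differed by -0.43 ± 0.17 (adjusted p = 0.0245). The median difference of all 12611 starts was 0.14, so both differed more relative to it. Mkrn3 did not pass without any 1 of 5 single wild-type libraries (adjusted p = 0.0604 to 0.110), with no filter on low values (adjusted p = 0.0579) or over windows within 2 kb of the start (adjusted p = 0.130). Ndn had -0.40 ± 0.19 (limma adjusted p = 0.0626) and passed with edgeR (-0.56, adjusted p = 0.00109), over windows within 2 kb (adjusted p = 0.0411), with the replicate number as a block (adjusted p = 0.0129) and without any 1 of 5 single libraries (adjusted p = 0.0338 to 0.0455). Magel2 had 0.20 ± 0.19 (adjusted p = 0.379) and passed with quantile scaling (0.38, adjusted p = 0.0183), and Gm32061 had -0.28 ± 0.18 (adjusted p = 0.181) and passed with edgeR (-0.44, adjusted p = 0.0204). These were 2 of 5 tested starts of the domain, where 46.1% of all passed. In matDKO/CAST 0 of 5 passed in Epi and 0 of 5 in ExE by limma, where 16.7 and 0.373% of all did. An unadjusted limma p below 0.05 was found at 1 start in each tissue, Peg12 in Epi (0.0484) and Gm32061 in ExE (0.0122), where 29.4 and 12.3% of all starts had one, and edgeR on recovered reads also passed 0, where 11 and 2.75% of all passed.

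Total H3K36me3 was tested for Ube3a, the Snurf body and Gm38393, a transcript model that overlaps Snrpn. The Snurf body had 0.983 ± 0.149 RPKM (SD, n = 4) in wild-type Epi and 0.685 ± 0.131 in ExE, a log2 difference of -0.32 ± 0.09 (limma adjusted p = 0.014). Over Ube3a the levels were 0.821 ± 0.104 and 1.31 ± 0.401 RPKM, a difference of 0.43 ± 0.10 (adjusted p = 0.00419). The median difference of all 12627 gene bodies was 0.30, so Ube3a exceeded it by little while Snurf went the other way, and with quantile scaling or edgeR the Ube3a difference did not pass. Without CAST/B6 Epi replicate 2 or CAST/B6 ExE replicate 1 the Snurf difference did not pass (adjusted p = 0.0562 and 0.0517). These were among the 3 of 3 bodies that passed, where 63.6% of all did. In matDKO/CAST 0 of 3 passed in each tissue, where 0.174 and 0.0238% of all did, and edgeR on recovered reads also passed 0, where 2.4 and 0.261% of all did. An unadjusted limma p below 0.05 was found at 0 of the 3 in Epi and at Gm38393 in ExE (0.0265), where 14.7 and 10.7% of all bodies had one.

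In the wild type no parental bias passed in both crosses, nor a parent effect, in the genes on either side of the domain. Of 10 genes listed on the proximal side, from Tubgcp5 to Atp10a, 9 had an informative H3K4me3 promoter peak in each tissue, and of 12 on the distal side, from Chrna7 to Tjp1, 11 had one. In Epi and in ExE 0 were imprinted, where 0.108 and 0.319% of all informative peaks were in either direction, and 0 had a parent effect, where 0.197 and 0.711% did. Nipa2, a magnesium transporter gene of the proximal side, was the 1 flanking gene that changed in matDKO/CAST, by -1.44 in Epi (edgeR adjusted p = 0.0147) and -1.19 in ExE (adjusted p = 0.0059), where 0.674 and 0.892% of all informative peaks changed in either direction. Its bias in B6/CAST was -0.31 and 0.04, and that in matDKO/CAST was -1.75 (edgeR adjusted p = 5.85e-12) and -1.14 (adjusted p = 0.00783). Total H3K4me3 of the flanks differed in matDKO/CAST at 0 of 7 proximal and 0 of 11 distal tested starts in each tissue, where 1.54 and 0.548% of all starts passed.

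Peg3 and Kcnq1ot1, other genes of chromosome 7 whose imprint is a methylation mark from the oocyte, were compared as like regions. In Epi the H3K4me3 peak of Peg3 had log2 ratios of 6.24 and 7.40 in the wild-type crosses (B6 mother first) and 0.17 in matDKO/CAST, and that of Kcnq1ot1 had 5.22, 5.28 and 0.28. Their changes of -6.02 and -4.92 in Epi and of -3.91 and -4.99 in ExE stand beside -5.76 and -5.59 at Snrpn, and all 4 passed (edgeR adjusted p = 1.26e-09 to 1.53e-08). Whether Snrpn differs from them was not tested.

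Over the 6 libraries of a tissue, the promoter peaks whose log2 ratios were nearest to those of Snrpn, by Euclidean distance among 14088 peaks in Epi, were Peg13 (2.50), Peg3 with Usp29 (2.75), Plagl1 (2.94), Impact (3.34) and Inpp5f (3.70). In ExE, among 14498 peaks, they were Peg13 (1.14), Kcnq1ot1 (1.96), Plagl1 (2.69), Mest (2.89) and Impact (3.00). Nearest to Magel2 in Epi were H13 with Mcts2 (3.11), Peg12 (3.75), 1700017J07Rik (4.12), Peg10 with Sgce (4.13) and Nap1l5 (4.13). In ExE the nearest were Gm11755 (0.846), Jade1 (0.889), Mfap5 (0.978), Cpne4 (0.998) and Fam163b (1.01), and no other gene of the domain was among them.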

How the data were processed

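Native ChIP-seq reads were trimmed with Trim Galore 0.4.4 and aligned with Bowtie2 2.3.2 to GRCm38 (submitters' processing notes); alleles were assigned with SNPsplit. The deposited allelic tables hold raw counts of maternal and paternal reads per peak. The authors called peaks with chromstaR per cross and tissue and merged those of the wild-type crosses. For matDKO/CAST they left out strain differences that 129 shares with CAST and added 129 reads to the maternal allele, so its change from B6/CAST also compares different sets of strain differences. The deposited window table holds RPKM per 1 kb window, scaled to library size by the authors; a deposited score column of the peaks was not used. Here edgeR 4.0.16 (R 4.3.3; TMM, quasi-likelihood) was fitted over all autosomal peaks with at least 20 reads in 1 wild-type allele, per cross, over both wild-type crosses with a strain term, and for the interaction of matDKO/CAST and B6/CAST. RPKM was tested with limma 3.58.1 on log2(RPKM + 0.5) for regions with a mean of at least 0.5 RPKM, which understates changes of low regions, and adjusted by Benjamini-Hochberg over all regions. Alternatives included DESeq2 1.42.0 and edgeR on reads recovered from RPKM steps. Scripts were tested on simulated data. The members, lists and the rule for named genes, which takes all 6 members and every peak of the domain, were chosen with earlier results of these data known. Reads that span 2 windows count in both. Counting error limits peaks with few reads.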

Additional observations from a re-analysis of the deposited data

Results flagged for a closer look

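Among the 36 groups of 4 wild-type libraries tested, 3 had 1 library far from the others, and chance alone gives about 1 in 20. The gap over the range was 0.853 for CAST/B6 replicate 2 at the H3K4me3 peak of Epi at 60242500, 0.839 for CAST/B6 replicate 1 at Mkrn3 for H3K4me3 in ExE, and 0.867 for B6/CAST replicate 1 at Ube3a for H3K36me3 in Epi.

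At 11 of the 36 informative peaks every library of B6/CAST lay on 1 side of equal reads and every library of CAST/B6 on the other, as at 30.3% of all 90111 informative autosomal peaks, and the difference between the crosses was not tested. For H3K4me3 the log2 ratios in B6/CAST and CAST/B6 were 0.21 and -0.31 at Ube3a and -0.65 and 4.42 at 60489000 in Epi, and in ExE -0.21 and 0.02 at Ube3a, -0.98 and 2.28 at 60390000, -1.82 and 2.49 at 60491000, and 0.41 and -0.13 at Peg12. For H3K27me3 they were -0.89 and 2.07 at 60440500 and -0.090 and 0.33 at Ndn in Epi, and -0.26 and 0.39 at 62228500 and -0.76 and 0.50 at Ndn in ExE. For H3K36me3 in ExE they were 0.35 and -0.26 at 59300000.

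Between the tissues the paternal bias in ExE minus that in Epi was -1.28 at Ndn, -2.70 at Mkrn3 and -1.68 at Peg12 for H3K4me3 and -0.731 from Magel2 to Peg12 for H3K27me3, each with an exact permutation p of 0.0286 before and 0.0714 after adjustment. Between matDKO/CAST and B6/CAST the bias changed by -5.76 at Snrpn and -1.75 at Magel2 for H3K4me3 in Epi, by -5.59 at Snrpn in ExE, and for H3K36me3 at Snrpn by -2.33 in Epi and -3.00 in ExE, each past the interaction test of edgeR.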

How the results depend on the processing

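No called value changed direction under any alternative run. Of imprinted H3K4me3 peaks in Epi, 3 in the reported fit, 6 passed with no filter on low counts, 7 with the library as a block and 7 with all 3 crosses in 1 fit; in ExE, DESeq2, 1 fit of all crosses and a threshold of 0.01 each left 1 of 2. The 2 biased peaks in matDKO/CAST in Epi became 1 with library totals, 1 fit of all crosses or a threshold of 0.01, and 0 with DESeq2; the block gave 2 in ExE, where the reported fit gave 0. Changes in Epi were 1 with DESeq2 and 4 with the block. For H3K27me3 and H3K36me3 together, DESeq2 left 3 of 5 parent effects and the block gave 4 imprinted peaks in place of 2.

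For total signal in matDKO/CAST, H3K4me3 in Epi gave 1 call as reported, 0 with no filter, the replicate number as a block or B6/CAST alone as the reference (where 0.235, 1.3 and 0.232% of all starts passed), 2 with quantile scaling (0.435%) and 5 with edgeR (2.03%); in ExE quantile scaling and edgeR gave 1 each (1.03 and 2.49%). H3K27me3 in Epi gave 1 with the replicate number as a block, where 24.4% of all passed. Between tissues H3K27me3 gave 1 with no filter (18.8%) and 4 with edgeR (55.3%), and H3K36me3 gave 6 with no filter (27.9%).

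Leaving out 1 library at a time, in 1 fit of all crosses, gave for Epi 1 to 6 imprinted H3K4me3 peaks, 2 to 10 parent effects, 0 to 1 biased in matDKO/CAST and 1 to 3 changes, and for ExE 1 to 2, 1 to 3, 0 and 1. For H3K27me3 and H3K36me3 it gave 2 to 3 imprinted peaks, 4 to 5 parent effects and 1 to 2 changes. For total signal it gave 1 to 3 calls for H3K27me3, 2 to 3 for H3K36me3 and 2 to 4 for H3K4me3 between tissues, and 0 to 2 for H3K4me3 in matDKO/CAST Epi. The centre minus distal difference stayed between 4.02 and 4.69 in Epi and 5.47 and 5.94 in ExE. Where no value shows it, the cause of a shift was not tested. Within a modification, libraries of different groups with the same replicate number did not all deviate together, and pairing by number was not assumed: their deviations correlated at -0.31 to 0.33 for H3K4me3, -0.16 to 0.098 for H3K27me3 and -0.12 to 0.20 for H3K36me3. Peaks with few reads per allele, such as those of CAST/B6 replicate 3 at Mkrn3, limit what can be detected.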

Other observations

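The 8 letters CGCATGCG, chosen after the sequences were seen and identical on both strands, occurred in 5 of the 10 promoter windows of the domain's genes, those of Snrpn/Snurf, the 3 upstream Snrpn starts and Ndn, and in 1.86% of all 32817 promoter windows. The 3 upstream windows are alike, with 49.5 to 71% identical bases without gaps against at most 34% for any other pair of the 10, so their matches are not separate occurrences. No bound factor can be read from the match.

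The 3 H3K4me3 peaks of Epi that had too few reads for a test all lie between the centre and the distal genes. At 62208500 the wild-type libraries had 42 paternal and 0 maternal reads in all, and at 62224500 they had 22 and 3. In matDKO/CAST they had 19 and 14 reads and 10 and 4 reads. At 60732500 B6/CAST had 24 paternal and 19 maternal reads, CAST/B6 25 and 3 reads, and matDKO/CAST 22 and 19 reads, and the matDKO/CAST libraries, at 50 and 66.7% paternal, lay within the wild-type range of 50 to 90.5%.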
